A study of Mus musculus with 12 samples.

Results

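The genes described are 9 regulators of mitochondrial apoptosis in the adult mouse hippocampus: the survival genes Bcl2, Bcl2l1 and Mcl1, the pore-forming genes Bax and Bak1, the BH3-only genes Bcl2l11, Bbc3 and Bad, and the initiator caspase gene Casp9. They were chosen by name, with no measured value in the rule, although earlier results of these data were known. They are 9 of 36119 genes in the table, and all 9 were among the 14947 genes with a mean level of at least 1 that were tested. The samples are hippocampi of 12 C57BL/6 mice at postnatal day 70, 3 in each of 4 groups. Ethanol mice had received ethanol under the skin at 2.5 g/kg per injection, dissolved in 0.15 M saline, and saline mice an equal volume of the saline. Every mouse of all 4 groups was thus injected, with 2 injections separated by 2 hours on day 6 and again on day 7. Weaned mice were allotted at random on day 21 to standard or enriched cages, the latter shared by 2 to 6 littermates of the same sex and fitted with running wheels, ladders and objects. The groups are named by housing and injection: standard saline and standard ethanol, and enriched saline and enriched ethanol.

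The labels call the ethanol exposure prenatal, while the protocol in the same labels places all injections after birth. Tissue was taken on day 70, so the levels are those of hippocampi many weeks after the last injection and hold no measurement from the days of exposure. Neither the sex nor the litter or cage of a mouse is given, so a p value reflects only how far these libraries scatter, which may be technical or shared by littermates. In bulk tissue fewer cells of a type and less RNA per cell cannot be told apart. Markers of hippocampal granule cells, pyramidal cells, interneurons, astrocytes, oligodendrocytes and microglia were present in all 12 libraries. Choroid plexus tissue differed between libraries: the summed level of 8 choroid plexus markers was 7796 in enriched saline replicate 2 and 431 in standard ethanol replicate 1, against 35.2 to 139 in the others. Standard saline replicate 2 had the highest summed level of dentate granule cell markers, 331.

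Cells that die by the mitochondrial route do so when BAX or BAK opens the outer mitochondrial membrane and cytochrome c leaks out. Survival proteins such as BCL-2, BCL-XL and MCL-1 hold BAX and BAK in check, and BH3-only proteins such as BIM, PUMA and BAD bind the survival proteins and release that hold. Released cytochrome c assembles with APAF1 into the apoptosome, which activates caspase-9. In newborn rodents a binge-like dose of ethanol causes widespread death of young neurons within hours, and this death needs Bax. In the adult hippocampus the same gene sets how many newborn dentate granule cells survive.

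Every one of these proteins except caspase-9 carries a BH3 segment, the short helix through which the family members grip each other, and the coding bases of that segment are shown because they are what puts 8 of the 9 genes into 1 family. Each stretch holds 15 codons read 5′ to 3′ from the GENCODE M21 transcripts on GRCm38, and capitals mark the codons of the leucine and the aspartate that the segment shares throughout the family. For Casp9 the stretch is the one around the active site, and capitals mark the codon of its catalytic cysteine.
Bcl2: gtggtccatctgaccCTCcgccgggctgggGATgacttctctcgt
Bcl2l1: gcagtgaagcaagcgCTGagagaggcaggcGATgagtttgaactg
Mcl1: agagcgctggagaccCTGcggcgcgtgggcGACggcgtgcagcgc
Bax: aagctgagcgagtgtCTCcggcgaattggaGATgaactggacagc
Bak1: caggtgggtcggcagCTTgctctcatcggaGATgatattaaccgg
Bcl2l11: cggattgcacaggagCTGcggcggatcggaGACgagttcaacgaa
Bbc3: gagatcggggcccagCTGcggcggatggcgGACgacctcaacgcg
Bad: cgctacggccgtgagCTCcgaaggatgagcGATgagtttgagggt
Casp9: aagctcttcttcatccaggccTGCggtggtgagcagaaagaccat
The stretch of Bcl2 lies in exon 1 (chr1:106712572-106712616, minus strand, codons 89 to 103 of 236), that of Bcl2l1 in exon 2 (chr2:152829694-152829738, minus strand, codons 85 to 99 of 233) and that of Mcl1 in exon 1 (chr3:95659421-95659465, plus strand, codons 189 to 203 of 331). The pore-forming genes carry it in exon 3 of Bax (chr7:45465994-45466038, minus strand, codons 58 to 72 of 192) and exon 4 of Bak1 (chr17:27022528-27022572, minus strand, codons 71 to 85 of 209). In the BH3-only genes it lies in exon 3 of Bcl2l11 (chr2:128147135-128147179, plus strand, codons 145 to 159 of 196), of Bbc3 (chr7:16313758-16313802, plus strand, codons 136 to 150 of 193) and of Bad (chr19:6950777-6950821, plus strand, codons 146 to 160 of 204). The Casp9 stretch is split by an intron between exons 6 and 7 (chr4:141807232-141811552, plus strand, codons 318 to 332 of 454).

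The 9 genes spanned a wide range of levels. Levels are the deposited TPM, a measure of transcript abundance that is scaled for transcript length and so allows genes to be set beside each other. Bcl2l1, which encodes BCL-XL, was the highest, with 71.1 ± 4.10 TPM (SD, n = 12 libraries), followed by Bax at 47.0 ± 3.27, Bad at 41.0 ± 4.06 and Mcl1 at 40.2 ± 4.0. A lower tier held Casp9 at 10.5 ± 1.33, Bak1 at 7.45 ± 1.09, Bbc3 at 7.14 ± 1.66 and Bcl2 at 6.65 ± 0.677. Bcl2l11, which encodes BIM, was the lowest at 2.89 ± 0.409. Ranges over the libraries did not overlap between Bcl2l1 and Bax, between Mcl1 and Casp9, or between Bcl2 and Bcl2l11. The neighbours within a tier overlapped: Bax exceeded Bad in 11 of 12 libraries, Bad exceeded Mcl1 in 7, Bak1 exceeded Bbc3 in 7 and Bbc3 exceeded Bcl2 in 8. Casp9 exceeded Bak1 in all 12, although their ranges met. The median coefficient of variation over the 12 libraries was 10.2% for the 9 genes, 11.9% for all genes tested and 10.7% for genes with a mean of 5 to 100.

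**Figure D1:**
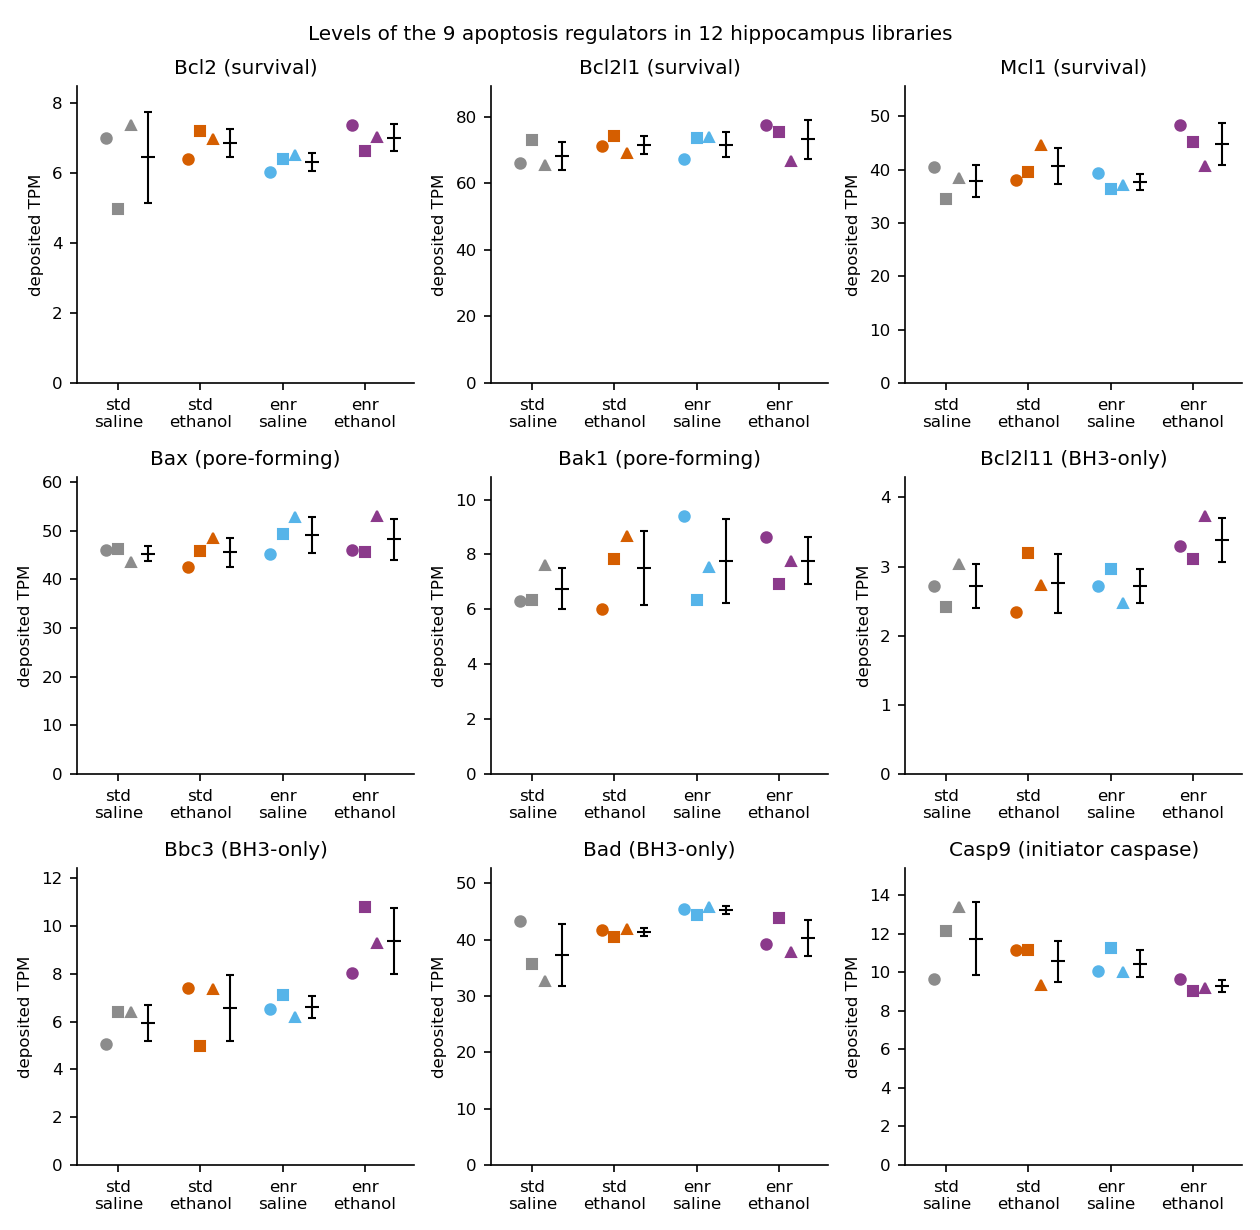
Deposited TPM (vertical axes, from 0) of the 9 genes in 12 hippocampus libraries, by group (std, standard cages; enr, enriched cages). Circles, squares and triangles are replicates 1, 2 and 3, and the bar beside each group is its mean ± SD (n = 3); Bbc3 in enriched ethanol mice, at 8.04 to 10.8, lies above every library of the other groups.

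None of the 9 genes passed the test for an ethanol difference in adult hippocampus, in either housing or averaged over both. In standard cages all 9 had overlapping ranges in ethanol and saline mice. In enriched cages Bcl2, Mcl1, Bcl2l11 and Bbc3 were higher in all 3 ethanol libraries than in all 3 saline libraries, and Bad and Casp9 were lower, with the largest fitted fold, 1.38, for Bbc3. limma was fitted to log2(TPM + 0.5) over all genes, with Benjamini-Hochberg adjustment, and a fold change on this scale understates that of low genes. In standard cages 0 of the 9 were called, with 0.0134% of all genes called, and 0 of the 9 had an unadjusted p under 0.05, against 7.39% of all genes. Nor did any of the 9 separate the groups there, where 12.1% of all genes did. In enriched cages 0 of 9 were called, as were 0% of all genes, while 2 of 9 had an unadjusted p under 0.05 (7.76% of all genes) and 6 of 9 separated the groups (15.2%). Averaged over housing 0 of 9 were called (0.0134% of all genes) and 2 of 9 had an unadjusted p under 0.05 (8.02%). No second tool was run on these values. The median log2 fold change of the 9 was 0.10 in standard cages, 0.032 in enriched cages and 0.073 averaged, against 0.0024, -0.0071 and -0.0017 over all genes tested. By sign, 8 of the 9 were above 0 in standard cages and 6 in enriched cages, against 7575 and 7177 of 14947 genes tested. The signs of Bax, Bcl2 and Bcl2l11 in standard cages depended on single libraries, as did those of Bax, Bak1 and Bcl2l1 in enriched cages.

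**Figure D2:**
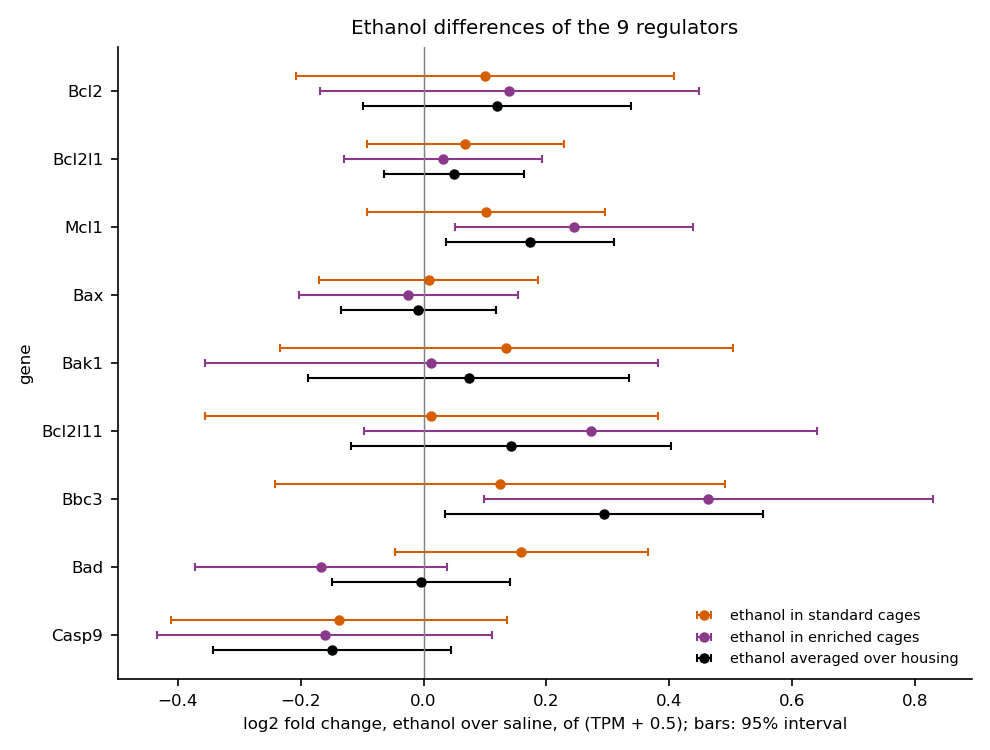
Log2 fold change of TPM + 0.5, ethanol over saline (horizontal axis), for each of the 9 genes in standard cages, in enriched cages and averaged over housing; points are limma estimates and bars their 95% intervals. The intervals of Mcl1 and Bbc3 in enriched cages and averaged lie above 0, and those of Bax sit on both sides of 0 in all 3 comparisons; none of the genes passed after adjustment.

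Among the survival genes Mcl1 had the smallest p value. It encodes a short-lived protein on which neural progenitors depend, and lies on chromosome 3 (95658788 to 95663176, plus strand). Its level was 40.6, 34.5 and 38.5 TPM in standard saline, 38.0, 39.5 and 44.5 in standard ethanol, 39.3, 36.4 and 37.2 in enriched saline and 48.4, 45.2 and 40.6 in enriched ethanol mice. The enriched ethanol libraries were all above the enriched saline ones, the closest by 40.6 to 39.3, and the standard groups overlapped. In enriched cages the log2 fold change was 0.24 (SE 0.09, 95% interval 0.05 to 0.44; limma adjusted p = 0.592), with an unadjusted p of 0.0176. In standard cages it was 0.10 (SE 0.09; limma adjusted p = 0.864), or 0.036 without standard ethanol replicate 3, and averaged over housing 0.17 (SE 0.06, 95% interval 0.04 to 0.31; unadjusted p = 0.0173, limma adjusted p = 0.525). The averaged unadjusted p stayed between 0.00696 and 0.0483 when any 1 of the 12 libraries was left out. The enriched-cage p was 0.0794 with enriched ethanol replicate 1 left out and 0.0547 with enriched saline replicate 2 left out.

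Bcl2, the founding survival gene of the family (chromosome 1, 106538178 to 106714274, minus strand), was among the lower of the 9. It was at 7.00, 4.97 and 7.36 TPM in standard saline, 6.40, 7.20 and 6.95 in standard ethanol, 6.03, 6.40 and 6.50 in enriched saline and 7.38, 6.63 and 7.02 in enriched ethanol mice. Standard saline replicate 2 was the lowest of the 12, and the 3 enriched ethanol libraries lay just above the 3 enriched saline ones. The log2 fold change was 0.10 in standard cages (SE 0.14), 0.14 in enriched cages (SE 0.14) and 0.12 averaged (95% interval -0.10 to 0.34; limma adjusted p = 0.810). Without standard saline replicate 2, which also had the highest granule cell marker level, the standard-cage value was -0.064. Exons of Bcl2 share bases with the antisense gene D630008O14Rik, which was not analysed here.

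Bcl2l1 (chromosome 2, 152780668 to 152831728, minus strand) encodes BCL-XL, the main survival protein of mature neurons, and varied little. Its level was 66.0, 73.0 and 65.7 TPM in standard saline, 71.2, 74.3 and 69.0 in standard ethanol, 67.2, 73.7 and 73.9 in enriched saline and 77.6, 75.5 and 66.6 in enriched ethanol mice. All 4 groups overlapped. The averaged log2 fold change was 0.050 (95% interval -0.064 to 0.16; limma adjusted p = 0.857).

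Neither pore-forming gene passed the test. Bax (chromosome 7, 45461697 to 45466898, minus strand), the gene on which the death of young neurons after neonatal ethanol depends, was at 46.1, 46.2 and 43.5 TPM in standard saline and 42.5, 45.8 and 48.4 in standard ethanol mice. In enriched cages it was at 45.3, 49.2 and 52.7 in saline and 46.1, 45.6 and 53.1 in ethanol mice. The groups overlapped in both housings. The averaged log2 fold change was -0.0083 (SE 0.058, 95% interval -0.13 to 0.12; limma adjusted p = 0.989), and the values were 0.0082 in standard and -0.025 in enriched cages. Its exons share bases on the same strand with Gm45808, whose mean was 0.423 TPM.

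Bak1, whose product forms the same kind of pore (chromosome 17, 27019810 to 27029009, minus strand), had wider intervals. It was at 6.31, 6.32 and 7.61 TPM in standard saline, 6.02, 7.84 and 8.66 in standard ethanol, 9.41, 6.36 and 7.53 in enriched saline and 8.65, 6.92 and 7.75 in enriched ethanol mice. Enriched saline replicate 1 was the highest of the 12, and ethanol and saline libraries were interspersed in each housing. Its averaged log2 fold change was 0.073 (95% interval -0.19 to 0.33; limma adjusted p = 0.916), so a difference of the size seen for Mcl1 would lie within the interval. Exons of Bak1 share bases on the opposite strand with Ggnbp1, whose group means lay between 4.57 and 5.95 TPM.

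Bbc3 had the largest ethanol difference of the 9 in enriched cages. It encodes PUMA, a BH3-only protein that binds all the survival proteins, and lies on chromosome 7 (16308393 to 16318205, plus strand). It was at 5.06, 6.39 and 6.39 TPM in standard saline, 7.41, 5.0 and 7.36 in standard ethanol, 6.55, 7.12 and 6.21 in enriched saline and 8.04, 10.8 and 9.29 in enriched ethanol mice. The 3 enriched ethanol libraries were the 3 highest of the 12, whereas standard ethanol replicate 2 was the lowest of all. In enriched cages the log2 fold change was 0.46 (SE 0.17, 95% interval 0.10 to 0.83), a fold of 1.38 with an unadjusted p of 0.0173 (limma adjusted p = 0.592). In standard cages it was 0.12 (SE 0.17; limma adjusted p = 0.927) and averaged 0.29 (SE 0.12, 95% interval 0.04 to 0.55; unadjusted p = 0.0292, limma adjusted p = 0.578). The difference between the housings, an interaction of 0.34 (SE 0.24), did not pass (limma adjusted p = 0.779) and was 0.17 without standard ethanol replicate 2. The standard-cage value was 0.30 without that library and 0.021 without standard saline replicate 1. Without enriched ethanol replicate 2, its highest library, the enriched-cage value was 0.36 with an unadjusted p of 0.0774, and without enriched saline replicate 3 the unadjusted p was 0.0525. The averaged unadjusted p was 0.05 or more when any of 5 libraries was left out, at most 0.0769. With the choroid-rich enriched saline replicate 2 left out, the enriched-cage value of Bbc3 was 0.51 and that of Mcl1 0.22.

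Bcl2l11 encodes BIM, which FOXO factors and the JNK pathway induce in neurons deprived of trophic support (chromosome 2, 128126038 to 128162547, plus strand). Its level was 2.71, 2.41 and 3.04 TPM in standard saline, 2.35, 3.20 and 2.73 in standard ethanol, 2.72, 2.96 and 2.47 in enriched saline and 3.29, 3.11 and 3.73 in enriched ethanol mice. As for Bbc3, the enriched ethanol libraries were all above the enriched saline ones, here the closest by 3.11 to 2.96, and the standard groups overlapped. The log2 fold change was 0.27 in enriched cages (95% interval -0.10 to 0.64; limma adjusted p = 0.707) and 0.013 in standard cages (95% interval -0.36 to 0.38; limma adjusted p = 0.999).

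Bad encodes a BH3-only protein that trophic survival signalling holds inactive by phosphorylation (chromosome 19, 6941861 to 6951899, plus strand). It was at 43.3, 35.7 and 32.7 TPM in standard saline, 41.7, 40.5 and 41.8 in standard ethanol, 45.5, 44.4 and 45.8 in enriched saline and 39.2, 43.9 and 37.9 in enriched ethanol mice. Standard saline replicates 2 and 3 were the lowest of the 12, and the 3 enriched saline libraries the highest. The ethanol difference accordingly had opposite signs in the housings, 0.16 on the log2 scale in standard cages (SE 0.09; limma adjusted p = 0.752) and -0.17 in enriched cages (SE 0.09; limma adjusted p = 0.685). The standard-cage value was 0.27 without standard saline replicate 1 (unadjusted p = 0.00477) and 0.071 without standard saline replicate 3. Their difference was -0.33 (SE 0.13, 95% interval -0.62 to -0.04), with an unadjusted p of 0.0309 that did not pass (limma adjusted p = 0.643) and that was 0.05 or more when any of 8 libraries was left out. Averaged over housing the value was -0.0038 (95% interval -0.15 to 0.14). Exons of Bad share bases with Gpr137 on the opposite strand, which ranged from 59.1 to 63.8 in standard saline and from 60.9 to 70.9 in enriched saline mice.

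Casp9, the initiator caspase that the apoptosome switches on (chromosome 4, 141793612 to 141815976, plus strand), had the lowest averaged value. It was at 9.67, 12.1 and 13.4 TPM in standard saline, 11.2, 11.2 and 9.35 in standard ethanol, 10.1, 11.3 and 10.0 in enriched saline and 9.62, 9.02 and 9.20 in enriched ethanol mice. The enriched ethanol libraries were tightly grouped below the enriched saline ones, and the standard saline libraries were the most spread. The log2 fold change was -0.14 in standard cages (SE 0.13), -0.16 in enriched cages (SE 0.13) and -0.15 averaged (SE 0.09, 95% interval -0.34 to 0.04; limma adjusted p = 0.728). The standard-cage value was -0.26 without standard saline replicate 1 (unadjusted p = 0.0452) and -0.039 without standard saline replicate 3. Its exons share bases on the opposite strand with Cela2a and with Ctrc, a digestive protease gene that averaged 38.0 ± 5.55 TPM in standard saline, 29.2 ± 9.18 in standard ethanol, 29.6 ± 11 in enriched saline and 28.6 ± 9.69 in enriched ethanol mice (SD, n = 3 each). Libraries were made with a stranded kit, but whether quantification used strand is not given in the sources used here, and the part of the genes on the opposite strand in the values of Casp9, Bad, Bak1 and Bcl2 was not tested.

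The ratio of Bax to Bcl2 within a library, a common summary of the balance between pore formers and survival proteins, was also described. It was 6.59, 9.30 and 5.91 in standard saline, 6.63, 6.36 and 6.96 in standard ethanol, 7.50, 7.69 and 8.10 in enriched saline and 6.25, 6.88 and 7.55 in enriched ethanol mice. Group means were 7.27 ± 1.79, 6.65 ± 0.297, 7.76 ± 0.310 and 6.89 ± 0.652 (SD, n = 3 each). The ratio of 9.30 belongs to standard saline replicate 2, the library with the lowest Bcl2, and the groups overlapped in both housings. Computed from TPM + 0.5, unlike the ratios just given, the log2 ratio differed between ethanol and saline mice by -0.092 in standard and -0.16 in enriched cages. Without standard saline replicate 2 the standard-cage difference on that scale was 0.087, so its sign rests on that library.

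**Figure D3:**
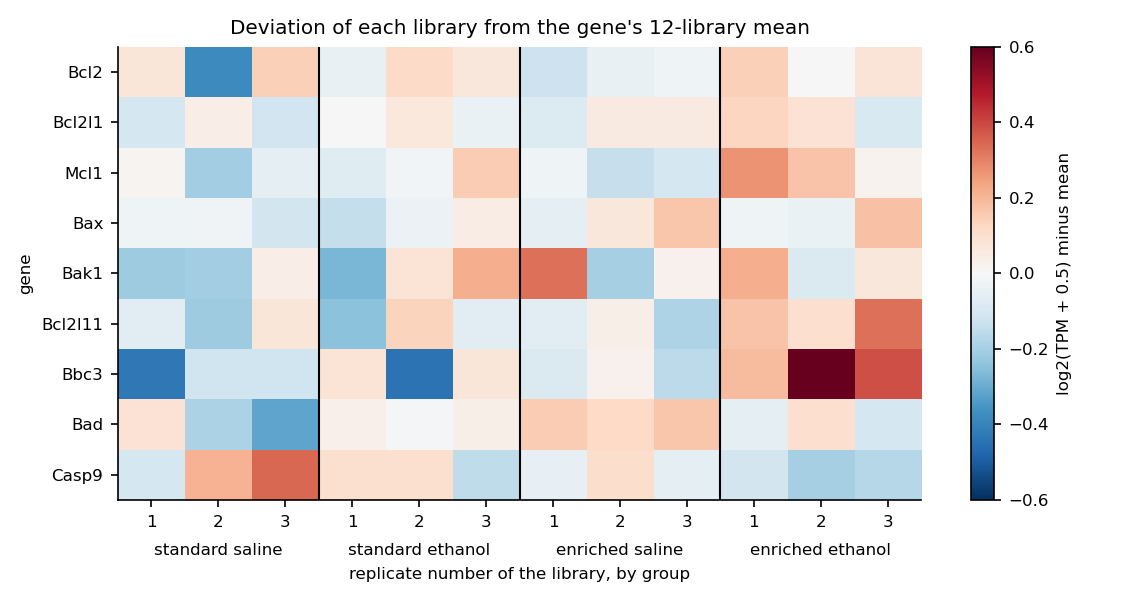
Log2(TPM + 0.5) of each gene in each library minus that gene's mean over the 12 libraries (colour scale from -0.6 to 0.6), with libraries in columns by group and replicate. The largest positive deviation is that of Bbc3 in enriched ethanol replicate 2 (0.60), and standard saline replicate 2 stands out for Bcl2 (-0.38).

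Enriched housing was compared with standard housing among saline and among ethanol mice. These comparisons share libraries with the ethanol comparisons, so they are given side by side and support nothing in them. Among saline mice Bad was the 1 gene of the 9 that separated the groups (14.0% of all genes did) and had an unadjusted p under 0.05 (10.0% of all genes). Its level was 45.3 ± 0.726 TPM in enriched and 37.2 ± 5.51 in standard saline mice (SD, n = 3 each), a log2 difference of 0.29 (SE 0.09, 95% interval 0.08 to 0.49; unadjusted p = 0.0101, limma adjusted p = 0.381). Without standard saline replicate 3, the lowest library, it was 0.20 with an unadjusted p of 0.0519, and without enriched saline replicate 2 it was 0.30. Among ethanol mice Bbc3 was the 1 gene of the 9 that separated the groups (12% of all genes) and had an unadjusted p under 0.05 (5.57%). Its level was 9.38 ± 1.39 TPM in enriched and 6.59 ± 1.38 in standard ethanol mice, a log2 difference of 0.49 (SE 0.17, 95% interval 0.12 to 0.86; unadjusted p = 0.0129, limma adjusted p = 0.861). Without standard ethanol replicate 2 it was 0.32 (unadjusted p = 0.0689), and the unadjusted p was 0.0606 without enriched ethanol replicate 2. None of the 9 was called for enrichment among saline mice (0.0268% of all genes), among ethanol mice (0.00669%) or for the interaction of ethanol and enrichment (0.0134%). For the interaction 1 of the 9, Bad, had an unadjusted p under 0.05, against 7.41% of all genes. The median enrichment difference of the 9 was 0.069 in saline and 0.056 in ethanol mice, against 0.0028 and -0.0054 over all genes tested.

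The wider pathway was read from 55 other genes listed by role, of which 49 were tested. Bcl2l10, Bcl2a1a, Bcl2a1d, Bik, Fasl and Fadd were not. None of the 49 was called in any of the 6 comparisons. For ethanol averaged over housing their median log2 fold change was 0.013, with 25 above and 24 below 0. Of the 49, 1 had an unadjusted p under 0.05 (8.02% of all genes did). That gene was Cdkn1a, which encodes the cell cycle inhibitor p21. It was at 2.20, 1.88 and 2.52 TPM in standard saline, 2.74, 3.41 and 3.75 in standard ethanol, 3.94, 3.80 and 3.0 in enriched saline and 4.22, 4.03 and 4.70 in enriched ethanol mice. Within each housing every ethanol library exceeded every saline library. Of all genes, 12.1% separated the groups in standard cages and 15.2% in enriched cages, in either direction. The share that did so in both was not computed. The averaged log2 fold change of Cdkn1a was 0.37 (SE 0.12, 95% interval 0.10 to 0.64; unadjusted p = 0.0113, limma adjusted p = 0.50). Among saline mice its enrichment difference was 0.59 (SE 0.17; limma adjusted p = 0.326). Trp53, which encodes p53, had an averaged value of -0.016 (95% interval -0.19 to 0.15).

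In each other list the gene with the smallest averaged p is given, and none of them passed. Pmaip1, which encodes the BH3-only protein NOXA, had an averaged log2 fold change of 0.28 (limma unadjusted p = 0.170). It was at 2.79, 2.14 and 1.28 TPM in the enriched ethanol libraries, against 1.06, 1.30 and 1.20 in those of enriched saline mice. In standard cages it was at 1.28, 1.29 and 1.03 in ethanol and 1.53, 0.812 and 1.33 in saline mice. Its mean over the 12 libraries, 1.42 TPM, was close to the filter of 1. Apaf1, the scaffold of the apoptosome that activates caspase-9, had -0.16 (unadjusted p = 0.0960). Among the inhibitors of caspases it was Birc6 with 0.051 (unadjusted p = 0.218). Htra2, a mitochondrial protease that antagonises inhibitors of caspases, had -0.13 (unadjusted p = 0.0599), and its mean was 22.9 ± 1.19 TPM in the enriched ethanol libraries and 26.2 ± 2.41 in those of enriched saline mice (SD, n = 3 each). These groups overlapped, with 23.8 in enriched ethanol replicate 2 and 23.5 in enriched saline replicate 3. The death receptor gene Fas had 0.42 with a wide interval of -0.16 to 1.0. Vdac2, a mitochondrial channel that binds BAK, had -0.069 (unadjusted p = 0.116), and Dffa, the inhibitor of the apoptotic nuclease, had -0.042. Bcl2a1b, a survival gene with near-identical copies whose value is uncertain for that reason, had -0.22 (unadjusted p = 0.414).

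The counts of the 49 at an unadjusted p under 0.05 are to be read against the shares of all genes given above. In standard cages (7.39% of all genes) 3 were higher in ethanol mice (Birc3, an inhibitor of apoptosis, 0.68, Cdkn1a 0.49 and the JNK kinase Mapk8 0.18) and 1 was lower. In enriched cages (7.76%) Jun (0.32) and Birc6 (0.13) were higher and Bcl2a1b (-0.98) and Htra2 (-0.19) lower. For enrichment among saline mice (10.0%) 5 were higher, of which Birc3 had the smallest p (log2 difference 1.07, SE 0.28; limma adjusted p = 0.287), and 1 was lower. Birc3 was at 1.49, 1.99 and 1.84 TPM in standard saline and at 2.94, 4.06 and 6.33 in enriched saline mice. For enrichment among ethanol mice (5.57%) 2 were higher and 2 lower, and for the interaction (7.41%) 1 was above and 4 below 0.

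**Figure D4:**
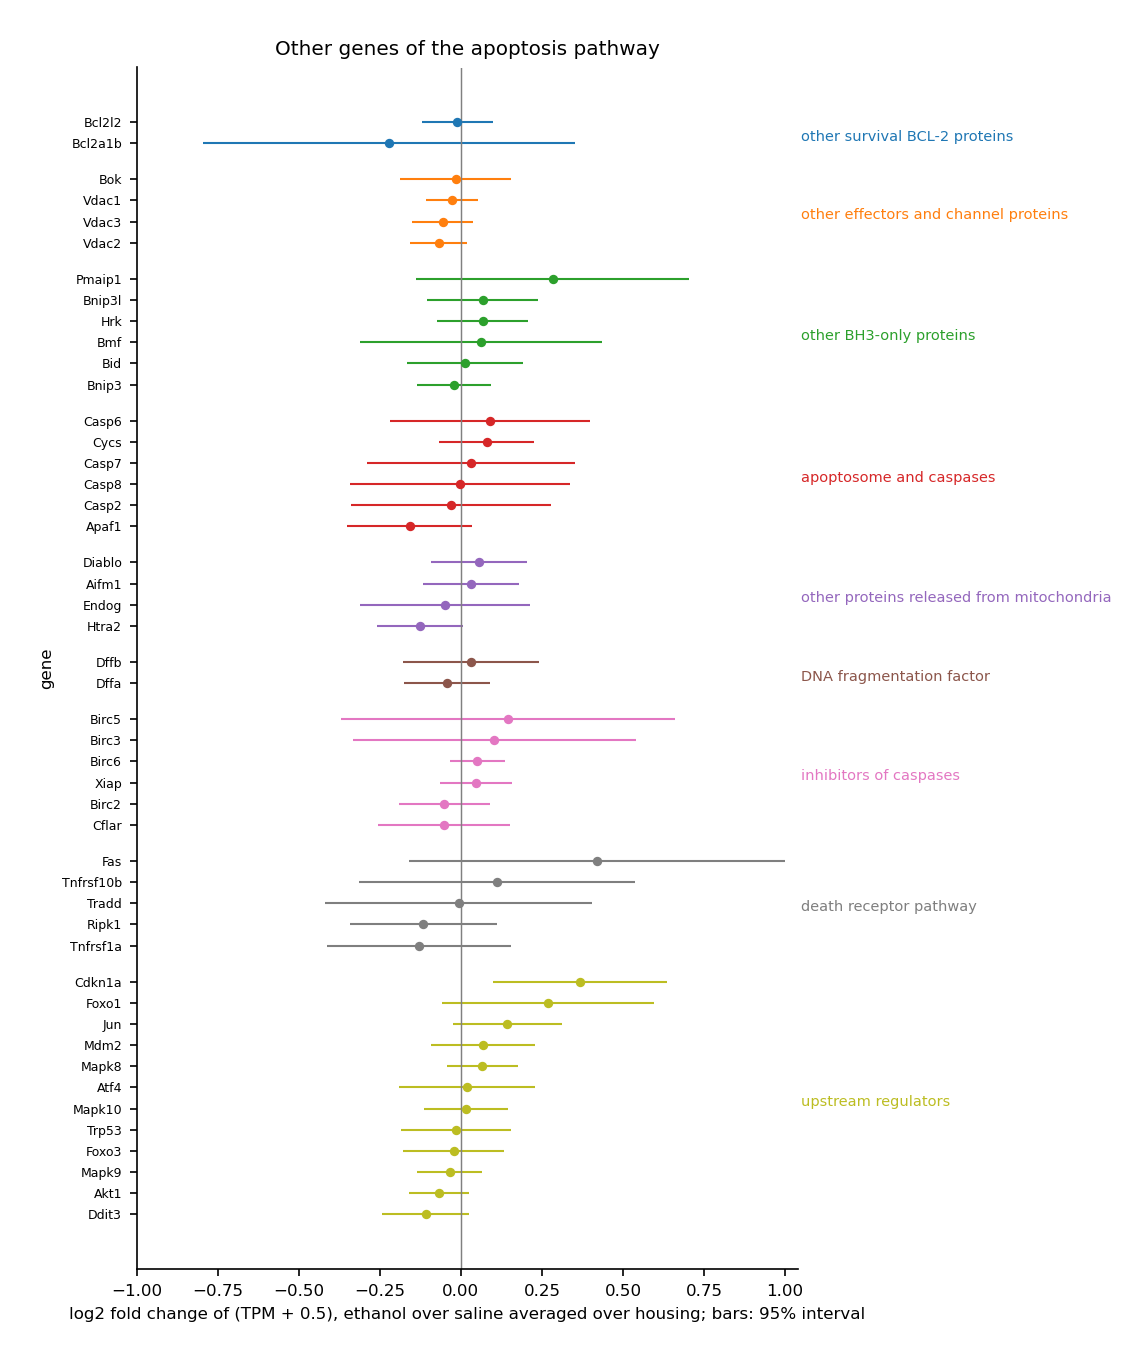
Log2 fold change of TPM + 0.5, ethanol over saline averaged over housing (horizontal axis), of 47 of the 49 other apoptosis genes tested, grouped by role; points are limma estimates and bars 95% intervals. Cdkn1a, at 0.37, has the smallest p of the 49 and none passed after adjustment.

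Some cell type markers also differed between the groups in which these genes were compared. In enriched cages the summed level of 8 astrocyte markers was 3119 to 3272 TPM in ethanol and 2821 to 2949 in saline mice, and that of 8 markers of immature neurons and progenitors 78.7 to 94.0 against 59.7 to 73.8. Of these markers 3 of 8 in each list were higher in every ethanol library, and none was at 0. Of 10 myelin and oligodendrocyte markers 5 were higher in every ethanol library and 0 lower, in enriched as in standard cages, although their sums overlapped in both. In standard cages, where the 9 genes overlapped, the summed immature neuron markers were higher in ethanol mice (97.2 to 102 against 65.9 to 82.1, with 6 of 8 markers higher and 0 lower) and the dentate granule cell markers lower (165 to 209 against 225 to 331, with 5 of 8 lower and 0 higher). Sums were also higher there for oligodendrocyte precursors (3 of 6 markers higher, 0 lower), endothelial and mural cells (2 of 9 higher, 1 lower) and meningeal fibroblasts (3 of 8 higher, 0 lower). Among saline mice, where the Bad libraries separated, the sums of endothelial and mural markers (177 to 204 against 149 to 175, 3 of 9 higher) and of meningeal fibroblast markers (120 to 201 against 75.7 to 118, 3 of 8 higher) were higher in enriched cages. Among ethanol mice, where the Bbc3 libraries separated, the sum of immature neuron markers was lower in enriched cages (78.7 to 94.0 against 97.2 to 102, with 2 of 8 lower and 1 higher). Sums of the other lists overlapped there. Of 8 dentate granule cell markers 3 were higher and 0 lower in enriched cages. Of 8 meningeal fibroblast markers 3 were lower and 0 higher, and of 6 oligodendrocyte precursor markers 2 were lower and 0 higher. For ethanol, 12.1% of all genes separated the groups in standard cages and 15.2% in enriched cages, in either direction. For enrichment, 14.0% did so among saline mice and 12% among ethanol mice. The marker counts are to be read against these shares, and whether any list exceeded them was not tested. The part of these cell types in the levels of the 9 genes was not tested.

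For each of the 9 genes the protein-coding genes with the most similar course over the 12 libraries were looked up, as a description, among 13639 genes. With so many genes searched and libraries that share their groups, high correlations arise readily. Bbc3 ran most closely with Uggt1 (Pearson r = 0.88 over 12 libraries, Spearman rho = 0.85) and Zfp318 (r = 0.87), and Mcl1 with Fbxl14 (r = 0.91) and Ncl (r = 0.89). Bad ran with Decr2 (r = 0.88) and Anxa1 (r = 0.87), Casp9 with Cep295 (r = 0.90) and Dop1a (r = 0.88), and Bcl2l1 with Mga (r = 0.89) and Nus1 (r = 0.89). For Bcl2 the closest was Fgfr1op (r = 0.91), whose r was 0.70 without the 2 libraries farthest from the median, and for Bcl2l11 it was Tmem33 (r = 0.82, and 0.67 without those). Bax ran with Fam129c (r = 0.91, and 0.81 without those) and Bak1 with Rtl1 (r = 0.83, and 0.74 without those). Both partners were low, Fam129c at 0.65 to 3.06 TPM and Rtl1 at 1.81 to 2.42. For the other partners named, r without those libraries ran from 0.71 (Ncl) to 0.90 (Mga). None of the genes named here belongs to the 9 or to the 55 other pathway genes.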

How the data were processed

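RNA from 12 hippocampi was sequenced as ribosome-depleted, stranded total RNA libraries, per the labels' protocols. CASAVA, kallisto, sleuth and the mouse build mm10 are named, without versions or roles, per the submitters' processing notes. The deposited table is named TPM by the authors, yet the 12 column totals ran from 973187 to 1024536, which is why the deposited values were handled as a signal proportional to TPM inside each library. The design had assumed plain TPM, and the test is the same for both. Depth is unknown.

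Positions came from GENCODE M21 (GRCm38). Symbols came from a separate list of gene names, which matched 35827 of 36119 identifiers. Genes with a mean of at least 1 were analysed as log2(TPM + 0.5). Group means of all 12 libraries were fitted jointly with limma 3.58.1 (R 4.3.3), using a mean-variance trend. The 6 comparisons were tested two-sided with Benjamini-Hochberg adjustment over 14947 genes and a threshold of 0.05. The values of 2 pathway genes are not reported here. The script was tested on simulated data.

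The 9 genes and all lists were chosen with earlier results of these data known. Named besides the 9 are any called pathway gene, the gene of smallest averaged p in each list, counts of 5 or fewer, and the 2 genes most correlated with each of the 9. Alternatives were other pseudocounts, filters and scalings, no trend, fewer groups, a replicate block and leaving out each library.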

Additional observations from a re-analysis of the deposited data

How the results depend on the processing

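The number of the 9 genes called was 0 in each of the 118 values recomputed, 1 for each combination of a comparison with an alternative setting that applied to it. Signs were followed for 33 log2 fold changes, those for ethanol in all 9 genes and those for enrichment and the interaction in Bad and Bbc3 only. They were kept in 624 of 646 recomputed values, and the 22 that reversed each came from leaving out 1 library. Over those settings the value ranged for Bax from -0.036 to 0.057 in standard cages, from -0.094 to 0.028 in enriched cages and from -0.043 to 0.018 averaged, for Bak1 in enriched cages from -0.11 to 0.15, for Bcl2 and Bcl2l11 in standard cages from -0.064 to 0.20 and from -0.082 to 0.11, for Bcl2l1 in enriched cages from -0.013 to 0.098, and for Bad from -0.048 to 0.053 averaged and from -0.10 to 0.0051 for enrichment in ethanol mice. The number of the 9 with an unadjusted p under 0.05, leaving out 1 library at a time, was 0 to 2 for ethanol in standard cages (2, Bad and Casp9, without standard saline replicate 1), 1 to 3 in enriched cages, 1 to 2 averaged, 0 to 2 for enrichment in saline mice, 0 to 1 in ethanol mice and 0 to 1 for the interaction. In the same order, all genes at that p numbered 868 to 1387, 692 to 1356, 978 to 1403, 1118 to 2182, 594 to 1136 and 794 to 1568. With all 12 libraries they numbered 1105, 1160, 1199, 1498, 833 and 1107 of 14947.

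Counts of all genes called are small and moved with most settings. In the order ethanol in standard cages, in enriched cages, averaged, enrichment in saline mice, in ethanol mice and interaction, limma called 2, 0, 2, 4, 1 and 2 as reported. Without a filter the counts were 7, 1, 6, 7, 2 and 4, and leaving out 1 library they ranged from 1 to 7, 0 to 15, 1 to 10, 1 to 20, 0 to 21 and 1 to 12. With a pseudocount of 0.1 they were 0, 2 and 0 for the ethanol comparisons and 0 for enrichment in ethanol mice and for the interaction. A mean of at least 5 gave 0 in standard cages, averaged, in ethanol mice and for the interaction, and 1 for enrichment in saline mice. With only the groups compared the counts were 4 and 1 for ethanol and 8 and 4 for enrichment. Enrichment in saline mice had 1 with a pseudocount of 1 and 2 with median-ratio scaling. Genes at an unadjusted p under 0.05 for enrichment in ethanol mice numbered 1338 without a filter, against 833, and for ethanol in enriched cages 692 to 1356 when 1 library was left out, against 1160. With the replicate number as a block, 1 gene was called for the averaged ethanol difference and 2 of the 9 still had an unadjusted p under 0.05. Whether same-numbered libraries share a litter, cage or batch is not given. Deviations of 18 same-numbered pairs correlated between -0.15 and 0.058, with 0 over 0.1, which cannot settle it with 3 libraries a group. With 3 libraries a group and unknown depth, true differences may have gone uncalled, and any value within an interval given remains compatible with these libraries.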
